A study of Mus musculus with 8 samples.

Results

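The distal end of mouse chromosome 7 carries a pair of neighbouring imprinted domains. Some genes of such domains are expressed mainly from the copy inherited from 1 parent. The genes described here, in 8 RNA libraries, are H19, Igf2, Kcnq1ot1, Cdkn1c, Phlda2, Slc22a18, Tspan32, Cd81, Tssc4 and Nap1l4. These 10 were chosen by name from the 55487 gene identifiers of the deposited table, and all 10 passed the filter on low counts that left 13280 genes. No measured value enters that rule, but the list was drawn up with earlier results of these libraries known, so the differences below are a description and their p-values are no independent support.

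The libraries come from mouse embryonic stem cells on day 6 of a differentiation towards precardiac mesoderm, the progenitors of the heart. Parental cells are E14-Tg2a, an embryonic stem cell line with the genotype label WT (4 libraries). Mutant cells are E14-Tg2a 4D, a derived line labelled Tbx1-/- (4 libraries), a mutant of the T-box transcription factor gene linked to DiGeorge syndrome in humans. All mutant libraries come from the single line 4D, so that genotype and other features of 4D cannot be told apart. Counts are not separated by allele, so the imprint itself was not measured.

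Each domain is governed by a control region whose DNA methylation differs between the parental copies. At the first, the factor CTCF binds the unmethylated maternal copy, where H19 is expressed, while Igf2 is expressed from the paternal copy. At the second, the long antisense RNA Kcnq1ot1 is made from the paternal copy and silences neighbours such as Cdkn1c, Phlda2 and Slc22a18 on it. The domains are known for their part in fetal growth, and their disturbance underlies Beckwith-Wiedemann and Silver-Russell syndromes in humans.

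H19 RNA is also the precursor of a microRNA, and its mature arms are shown because H19 is the gene that fell in the mutant line. Capitals mark the seed, bases 2 to 8. The sequences are from RefSeq on GRCm38.p6, minus strand, with the 5p arm at chr7:142577112-142577133 and the 3p arm at chr7:142577078-142577099.

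mmu-miR-675-5p: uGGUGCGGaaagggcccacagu

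mmu-miR-675-3p: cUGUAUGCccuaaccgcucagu

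The gene model of the hairpin, Mir675, had 0 counts in all 8 libraries. The assay, QuantSeq, sequences the 3′ end of polyadenylated RNA, so the processed microRNA is not what it reads.

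RefSeq promoter windows, from 250 bases before to 50 bases after a start site, were given for 7 of the 10 genes, with 4 windows for Igf2 and 1 for each of the others, which makes 10. H19, Cdkn1c and Nap1l4 had no entry. The 250 bases before the start are printed for Phlda2, the gene that was called higher, and for Kcnq1ot1, whose promoter lies in the control region of the second domain. Capitals mark exact matches to the GC box GGGCGG, the CCAAT box CCAAT and the TATA box TATAAA on either strand. Both sequences are from the minus strand of GRCm38.p6.

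Phlda2, chr7:143502525-143502774: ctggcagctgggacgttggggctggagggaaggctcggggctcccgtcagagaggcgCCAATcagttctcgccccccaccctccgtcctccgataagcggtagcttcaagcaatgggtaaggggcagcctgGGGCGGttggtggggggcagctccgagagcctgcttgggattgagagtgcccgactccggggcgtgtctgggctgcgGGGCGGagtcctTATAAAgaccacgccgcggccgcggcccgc

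Kcnq1ot1, chr7:143296548-143296797: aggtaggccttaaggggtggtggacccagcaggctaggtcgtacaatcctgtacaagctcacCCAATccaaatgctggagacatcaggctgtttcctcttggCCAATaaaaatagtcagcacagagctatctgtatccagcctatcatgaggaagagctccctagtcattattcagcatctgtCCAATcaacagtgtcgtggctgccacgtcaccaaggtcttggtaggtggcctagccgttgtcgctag

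The Phlda2 window holds a TATA box 30 bases before the start, GC boxes at 42 and 119 bases and a CCAAT box at 193 bases. The Kcnq1ot1 window holds CCAAT boxes at 67, 148 and 188 bases and neither of the other motifs. Among 32851 promoter windows of that length, 13.6% hold TATAAA, 35.7% GGGCGG and 37.4% CCAAT. A T-box element, searched as AGGTGTGA on both strands, was found in 0 of the 10 windows and in 1.28% of all windows. These are matches of letters only. CG dinucleotides, the sites of DNA methylation, numbered 26 for Phlda2, 9 for Kcnq1ot1, 23 each for Cd81 and Tssc4, and 2 each for Tspan32 and Slc22a18. The 4 windows of Igf2 had 7, 24, 14 and 2. The median of all windows was 7, with quartiles of 3 and 20.

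Library totals ranged from 3803561 to 6293907 counts. Mutant library 4, the shallowest, stood apart with 14850 genes detected, against 18213 to 19134 in the other 7. Tbx1 had 39, 65, 38 and 22 counts in parental libraries 1 to 4, against 3, 0, 1 and 0 in the mutant ones, with no overlap. All 14 listed markers of precardiac and cardiac mesoderm passed the filter on low counts. All 10 listed endothelial and blood markers and 9 of 10 endoderm markers passed it too, so passing does not tell cell types apart.

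The lines were compared by edgeR's quasi-likelihood test, with p-values adjusted by the Benjamini-Hochberg procedure over all 13280 genes and a threshold of 0.05. A gene past the threshold is called. Over all tested genes 188 were called, 1.42%, and 1584 of the 13280 had an unadjusted edgeR p under 0.05. A second method, DESeq2, called 203 higher and 196 lower in the whole table. Counts for the gene lists below are to be read beside these. Among the 10 genes of the domains, H19 was called lower and Phlda2 higher. Scaled by library size alone, 100 genes were called higher and 57 lower in the whole table, against 99 and 89 with TMM scaling. Levels are CPM, counts scaled to a common library size by edgeR's trimmed mean of M values (TMM), and with a 3′ assay they are not divided by length. For 3 of the 10 genes all libraries of 4D lay on 1 side of the parental ones, as for 7.52% of all tested genes. The median log2 fold change of the 10 was 0.02, and of all tested genes 0.0010. The median absolute log2 fold change was 0.33 and 0.24.

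**Figure D1:**
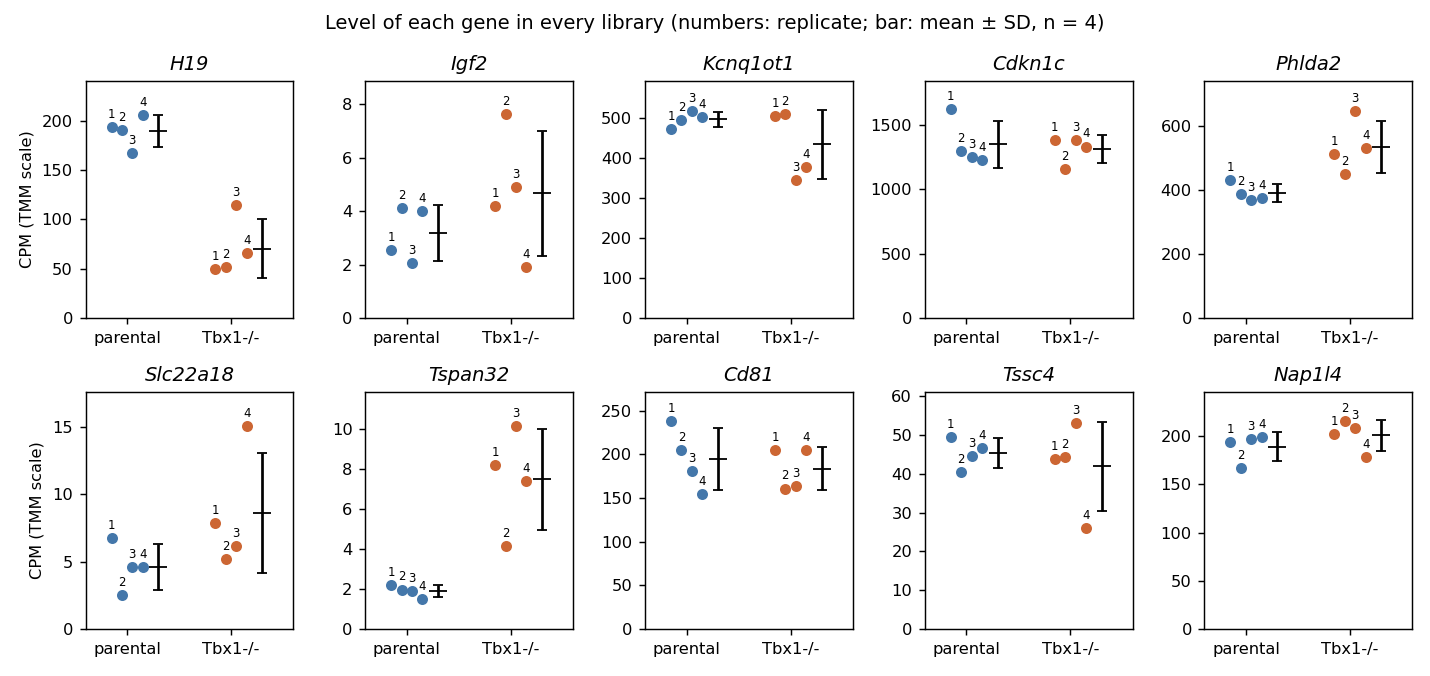
Level of each of the 10 genes in CPM (TMM scale, linear axes from 0) in the 4 parental and 4 Tbx1-/- libraries, with replicate numbers beside the points and the mean ± SD (n = 4) as a bar. H19 was at 167 to 206 CPM in parental and 49.7 to 114 CPM in Tbx1-/- libraries, and Phlda2 and Tspan32 also did not overlap.

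H19 (ENSMUSG00000000031.16, chromosome 7, 142575529 to 142578143, minus strand, GRCm38) makes a spliced, polyadenylated long noncoding RNA that is abundant in fetal endoderm and mesoderm. Parental libraries 1 to 4 had 1062, 1061, 1049 and 978 counts, which are 193, 190, 167 and 206 CPM. Mutant libraries 1 to 4 had 296, 238, 629 and 240 counts, which are 49.7, 51.9, 114 and 66.0 CPM. Every mutant library lay below every parental one, and mutant library 3 was the highest of its line. Means were 189 ± 16.1 CPM for the parental line and 70.5 ± 30.1 CPM for 4D (SD, n = 4).

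H19 thus fell 2.68-fold, a log2 fold change of -1.42 ± 0.20 (SE) with an edgeR adjusted p of 0.000792. Without mutant library 3 the log2 fold change was -1.77, and without mutant library 4 it was -1.40, with edgeR adjusted p-values of 3.26e-06 and 0.00135. In bulk RNA, fewer cells of a type and less RNA per cell cannot be told apart. Its exons share 84 bases with Mir675 on the same strand, a gene model at 0 counts.

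Igf2 (ENSMUSG00000048583.16, 142650766 to 142666816, minus strand) encodes insulin-like growth factor 2, a fetal growth factor, and starts 88.7 kb from the H19 start. It had 14, 23, 13 and 19 counts in the parental libraries, in order of replicate, and 25, 35, 27 and 7 in those of 4D. The libraries of the lines overlapped, and mutant library 4 was the lowest. In CPM the means were 3.19 ± 1.03 and 4.66 ± 2.35 (SD, n = 4), with a log2 fold change of 0.55, a 95% interval from -0.75 to 1.86 and an edgeR adjusted p of 0.791. Without mutant library 2 it was 0.21.

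These Igf2 counts cannot be read as the level of Igf2 RNA. The table also holds Gm49394 (ENSMUSG00000115302.1, 142650769 to 142669942), an annotated gene on the same strand. In GENCODE M21 it shares 3596 of 5723 exonic bases of Igf2 (62.8%). In the last Igf2 exon, where a 3′ assay reads, it shares 3284 of 3287 bases. Gm49394 had 0 counts in all 8 libraries and Igf2 had 163, so reads in the shared bases were not counted for both genes. Whether they were left out is not given in the sources used here. No other gene of the 10 shares exonic bases with a same-strand gene, apart from H19 with Mir675.

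Igf2os is an antisense RNA gene on the opposite strand of the locus (142659693 to 142670356, plus strand). It had 439, 262, 444 and 313 counts in parental and 517, 337, 506 and 232 in mutant libraries 1 to 4. Those counts overlap between the lines. With a log2 fold change of 0.26 ± 0.17 (SE), Igf2os had an edgeR adjusted p of 0.597. Its exons share 98 bases with Igf2 exons, on opposite strands, and counting used the forward strand, by the table's name.

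The log2 ratio of H19 to Igf2 counts, which needs no scaling between libraries, was 6.25, 5.53, 6.33 and 5.69 in the parental libraries, by replicate. For 4D it was 3.57, 2.77, 4.54 and 5.10. All mutant ratios were below all parental ones, with a difference of means of -1.96, given without a test. H19 counts enter every ratio, so this in part restates the fall of H19 and is no separate result. The limit on Igf2 counts holds for this ratio too.

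Kcnq1ot1 (ENSMUSG00000101609.2, 143203458 to 143296549, minus strand) is the long antisense RNA that starts within an intron of Kcnq1 and lies 718 kb from H19, start to start. Its counts were 2605, 2769, 3245 and 2395 in parental and 3008, 2350, 1901 and 1378 in mutant libraries 1 to 4. In CPM the parental libraries were at 474, 497, 518 and 505, and the mutant libraries at 505, 512, 345 and 379. Mutant libraries 1 and 2 lay within the parental range, and mutant libraries 3 and 4 below it.

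The log2 fold change of Kcnq1ot1 was -0.19, with a 95% interval from -0.45 to 0.06 and an edgeR adjusted p of 0.575. It was -0.10 without mutant library 3 and -0.29 without mutant library 2. Kcnq1, the potassium channel gene on the opposite strand, had at most 8 counts in a parental and 14 in a mutant library. Its 24 counts in all 8 libraries compare with 19651 for Kcnq1ot1. The annotated Kcnq1ot1 transcript is 93092 bases long and holds 10 runs of at least 10 A, the longest of 41, where an oligo-dT primer could bind inside the RNA. Counts of Kcnq1ot1 may therefore include reads from within it.

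Cdkn1c (ENSMUSG00000037664.13, 143458339 to 143461050, minus strand) encodes p57, an inhibitor of cyclin-dependent kinases that restrains proliferation. It had the highest level of the 10 genes in CPM, at 1619, 1298, 1246 and 1229 in parental libraries 1 to 4. Mutant libraries 1 to 4 were at 1378, 1157.5, 1382 and 1331 CPM. The ranges overlapped, and parental library 1 was the highest of the 8. The log2 fold change was -0.04, with a 95% interval from -0.25 to 0.17 and an edgeR adjusted p of 0.929. Its sign turned to 0.057 without parental library 1 and to 0.0089 without mutant library 2.

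Phlda2 (ENSMUSG00000010760.5, 143501545 to 143503150, minus strand) encodes a small pleckstrin-homology domain protein that limits growth of the placenta. Parental libraries 1 to 4 had 430, 386, 367 and 374 CPM, and mutant libraries 1 to 4 had 511, 451, 645 and 530 CPM. The lowest mutant library was above the highest parental one, and mutant library 3 was the highest. Means were 389 ± 28.4 CPM for the parental line and 534 ± 81.4 CPM for 4D (SD, n = 4).

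Phlda2 rose 1.37-fold, a log2 fold change of 0.46 ± 0.11 (SE) with an edgeR adjusted p of 0.0463, close to the threshold. Leaving out single libraries ended the call in 7 of 8 fits; it held only without mutant library 2. The fits without parental libraries 1, 2, 3 and 4 gave edgeR adjusted p-values of 0.0559, 0.189, 0.182 and 0.118. Those without mutant libraries 1, 3 and 4 gave 0.0844, 0.154 and 0.0607. A block for replicate number gave 0.0565. The log2 fold change stayed between 0.35 and 0.52 over all 16 alternatives. Phlda2 and Cdkn1c start 42.1 kb apart, and the difference between their fold changes was not tested.

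Slc22a18 (ENSMUSG00000000154.16, 143473736 to 143499334, plus strand), a membrane transporter gene between Cdkn1c and Phlda2, was near the lower end of detection. It had 37, 14, 29 and 22 counts in parental and 47, 24, 34 and 55 in mutant libraries 1 to 4. The ranges overlapped, and mutant library 4 was the highest in CPM, at 15.1 against 5.23 to 7.90 in the other mutant libraries. Slc22a18 had a log2 fold change of 0.88, with a 95% interval from -0.16 to 1.92 and an edgeR adjusted p of 0.527. Without mutant library 4 it was 0.48.

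Tspan32 (ENSMUSG00000000244.17, 143005046 to 143019644, plus strand) encodes a tetraspanin, a membrane protein known from blood cells. Its counts were 12, 11, 12 and 7 in parental and 49, 19, 56 and 27 in mutant libraries 1 to 4. Every mutant library was above every parental one, and mutant library 3 was the highest. In CPM the means were 1.89 ± 0.30 and 7.49 ± 2.51 (SD, n = 4). The log2 fold change of 1.98 ± 0.56 (SE) was the largest of the 10 in size, but Tspan32 was not called, with an edgeR adjusted p of 0.0986. DESeq2 called it, with an adjusted p of 0.0107. The longest annotated Tspan32 transcript holds 1 run of at least 10 A, with a length of 22. As for Kcnq1ot1, counts of Tspan32 may therefore include reads from within the RNA.

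Cd81 (ENSMUSG00000037706.17, 143052739 to 143067934, plus strand) encodes another tetraspanin, which is expressed in most cell types. Parental libraries were at 238, 205, 181 and 154 CPM, and mutant libraries at 204, 161, 163 and 205 CPM. All mutant values lay inside the parental range. Cd81 had a log2 fold change of -0.09, with a 95% interval from -0.38 to 0.20, and ranged from -0.19 to 0.021 without single libraries, turning positive without parental library 1. Tssc4 (ENSMUSG00000045752.13, 143069249 to 143071093, plus strand) encodes a protein of spliceosome assembly. It was at 49.5, 40.5, 44.7 and 46.8 CPM in parental and 43.8, 44.5, 53.2 and 26.1 CPM in mutant libraries 1 to 4, with mutant library 4 below all others. Its log2 fold change was -0.11, with a 95% interval from -0.53 to 0.31, and ranged from -0.25 to 0.055 without single libraries, turning positive without mutant library 4.

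Nap1l4 (ENSMUSG00000059119.9, 143513579 to 143549106, minus strand) encodes a histone chaperone at the outer edge of the second domain. Parental libraries 1 to 4 had 194, 166, 197 and 199.5 CPM, and mutant libraries 202, 216, 208 and 178 CPM. The ranges overlapped. Nap1l4 had a log2 fold change of 0.09, with a 95% interval from -0.14 to 0.32. It was 0.025 without parental library 2, 0.045 without mutant library 2 and 0.14 without mutant library 4. The edgeR adjusted p-values of Cd81, Tssc4 and Nap1l4 were 0.866, 0.893 and 0.818. The intervals of Cdkn1c, Cd81, Nap1l4 and Kcnq1ot1 all lie within 0.45 of 0, so that differences of the size seen for H19 fall outside them.

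**Figure D2:**
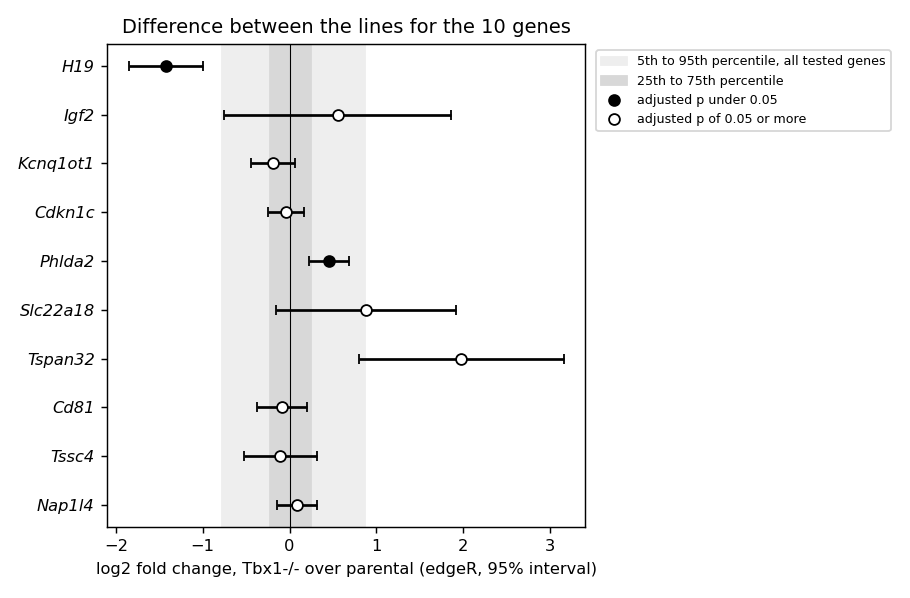
Log2 fold change of each gene, Tbx1-/- over parental, from edgeR with its 95% interval; filled points have an adjusted p under 0.05, and grey bands show the middle 50% and 90% of all 13280 tested genes. H19 at -1.42 and Tspan32 at 1.98 lie outside the wider band, and only H19 and Phlda2 are filled.

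In parental cells the 10 genes fell into an order by CPM. Cdkn1c (1348 ± 183), Kcnq1ot1 (498 ± 18.5) and Phlda2 (389 ± 28.4; all SD, n = 4) stood apart from each other and from the rest without overlap. Cd81, Nap1l4 and H19 followed, with means of 195, 189 and 189 CPM and overlapping libraries. Tssc4 was next at 45.4 CPM, with no overlap on either side. Slc22a18, Igf2 and Tspan32, at 4.63, 3.19 and 1.89 CPM, overlapped as neighbours. In mutant cells H19, at 49.7 to 114 CPM, lay below all libraries of Cd81 and Nap1l4 and overlapped Tssc4, whose highest library was at 53.2 CPM.

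The spread between libraries differed by gene and line. For H19 the coefficient of variation of CPM was 8.50% in parental and 42.7% in mutant libraries. For Kcnq1ot1 it was 3.72% and 19.7%, and for Cdkn1c 13.6% and 8.05%.

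Between Ctsd and Nadsyn1 (142375911 to 143822849, 1447 kb), which encloses both domains, 22 genes were tested. The 2 called were H19 and Phlda2, and 0 of the 12 others were called by edgeR. Of those 12, the smallest edgeR adjusted p was 0.305, for Ctsd. Over all tested genes 1.42% were called, so 0 of 12 says little about them. Tnnt3, 1 of the 12, had a log2 fold change of -1.41 ± 0.87 (SE) and was not called. For a gene with so wide an SE, a difference as large as that of H19 could be missed.

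**Figure D3:**
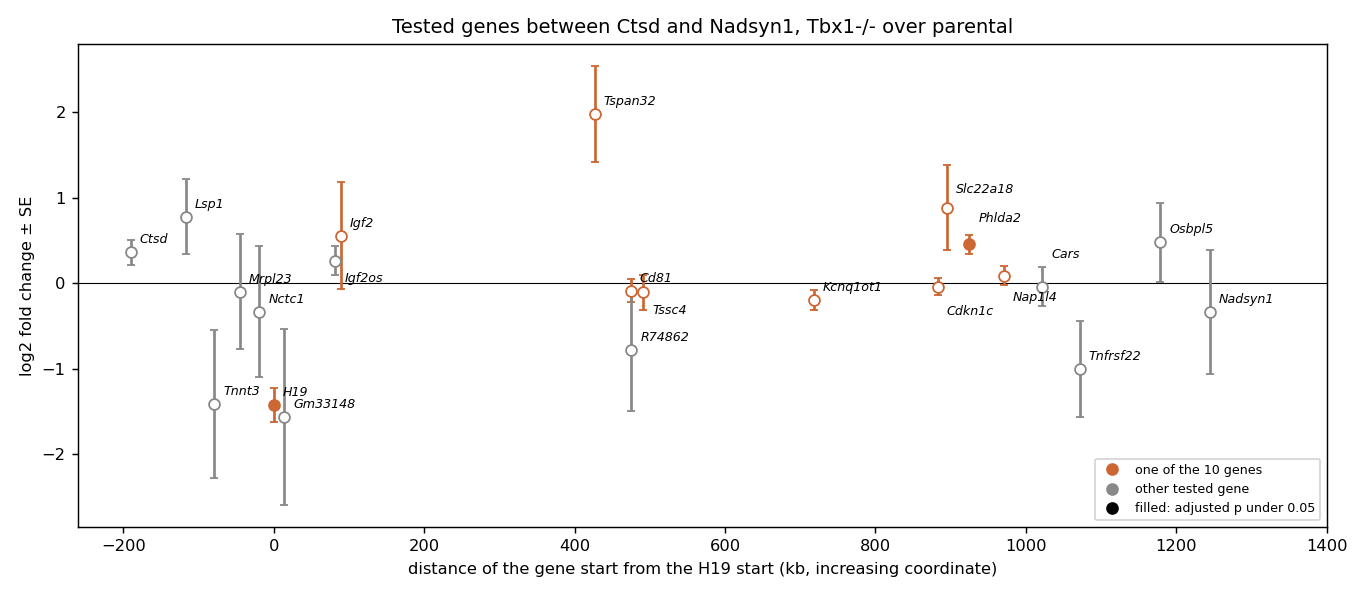
Log2 fold change ± SE (edgeR, Tbx1-/- over parental) of the 22 tested genes between Ctsd and Nadsyn1 against the distance of their start from the H19 start in kb. The called genes, filled, are H19 at 0 kb with -1.42 and Phlda2 at 925 kb with 0.46, with uncalled genes between them.

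A list of 25 other genes in and beside the domains had 13 tested, of which 0 were called by edgeR and 0 by DESeq2, with 2 at an unadjusted edgeR p under 0.05. Their median log2 fold change was -0.04. On the H19 side, the lysosomal protease gene Ctsd had means of 168 ± 12.3 CPM in parental cells and 216 ± 55.0 CPM in 4D (SD, n = 4). Mrpl23 and Nctc1, the nearest neighbours of H19 on that list, had log2 fold changes of -0.10 ± 0.67 and -0.33 ± 0.77 (SE). Gm33148, a tested gene not on that list, starts nearer to H19, at 13.6 kb. It had -1.56 ± 1.03 at a mean of 2.95 CPM and was not called. Lsp1 had 0.78 ± 0.44 and Tnnt3 -1.41 ± 0.87.

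On the far side, Cars, an aminoacyl-tRNA synthetase gene, had -0.04 ± 0.23, and Osbpl5, a lipid-binding protein gene, had 0.48 ± 0.46. Dhcr7, an enzyme gene of cholesterol synthesis, had -0.45 ± 0.17 with an edgeR adjusted p of 0.286. Nadsyn1, Shank2 and Fadd had log2 fold changes of -0.34, 0.34 and 0.24, and Tnfrsf22 had 6.16 and 3.05 CPM in parental and mutant means. Ascl2, an imprinted trophoblast factor, had at most 9 counts in any library and was not tested. Ins2 and Th, which lie beyond Igf2, had at most 4 and 11 counts, too few to show a difference.

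The ligand of the first domain acts through receptors and binding proteins spread over the genome. Of 22 genes of IGF handling and signalling, 18 were tested, with 2 called higher and 0 lower by edgeR, 5 called by DESeq2 and 9 at an unadjusted edgeR p under 0.05. Over all 13280 tested genes, 1.42% were called by edgeR and 1584 had an unadjusted edgeR p under 0.05. Of the 18, 8 had positive log2 fold changes. Their median log2 fold change was -0.13. Igfbp5, a secreted IGF-binding protein, rose from 471 ± 110 to 802 ± 242 CPM (SD, n = 4), with a log2 fold change of 0.77 ± 0.18 (SE) and an edgeR adjusted p of 0.0398. Its libraries overlapped between the lines, with parental library 4 at 617 CPM and mutant library 1 at 547 CPM. Akt1, a kinase downstream of the receptors, had 165 ± 14.1 CPM in the parental line and rose to 237 ± 19.2 CPM in 4D (log2 fold change 0.52 ± 0.11 SE).

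Igf2r, the receptor that clears IGF2, had 683 ± 17.4 and 767 ± 92.2 CPM (SD, n = 4), with an edgeR adjusted p of 0.542. Igf1r, the signalling receptor, was looked up after its values were seen. It had 490 ± 27.5 and 381 ± 30.9 CPM, with a log2 fold change of -0.36 ± 0.10 (SE) and an edgeR adjusted p of 0.0732. Igfbp4 had a log2 fold change of -0.05.

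Among 18 genes known to bind or regulate H19 and Igf2 RNA or its transcription, 17 were tested, with 1 called lower and 0 higher by edgeR, 2 called by DESeq2 and 6 at an unadjusted edgeR p under 0.05. Their median log2 fold change was -0.08, and 5 of the 17 were positive. The gene called was Lin28a, an RNA-binding protein that blocks let-7 microRNAs, for which H19 RNA carries binding sites. Lin28a had 241 ± 4.11 CPM in the parental line and fell to 139 ± 31.8 CPM in 4D (SD, n = 4), a log2 fold change of -0.79 ± 0.14 (SE) with an edgeR adjusted p of 0.00415. Igf2bp1 and Igf2bp2, which bind both RNAs, had log2 fold changes of -0.25 ± 0.09 and -0.33 ± 0.10. Hmga2 and Zfp36l1 had -0.02 and -0.08.

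Factors that maintain imprints or silence chromatin, including Trim28, Hnrnpu, Hnrnpk and the cohesin subunit Smc1a, were not called. Of 29 on that list 26 were tested, with 0 called by edgeR, 0 by DESeq2 and 2 at an unadjusted edgeR p under 0.05. Their median log2 fold change was -0.07, and that of Trim28, a corepressor that guards methylated imprints, was -0.11 ± 0.10 (SE). Relatives and partners of Cdkn1c in cell cycle control had 17 of 20 tested, with 0 called by edgeR, 0 by DESeq2 and 4 at an unadjusted edgeR p under 0.05. Cdkn1b, the inhibitor p27, was at 90.5 and 90.6 CPM, and Ccnd2, Cdk4 and Ccna2 had log2 fold changes of -0.34, 0.14 and -0.05.

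In 50 imprinted genes of other domains, 44 were tested, with 3 called higher and 0 lower by edgeR, 5 called by DESeq2 and 11 at an unadjusted edgeR p under 0.05. The 44 had a median log2 fold change of 0.10, and 29 were positive. The 3 called higher were Mest, Impact and Asb4, with log2 fold changes of 3.21, 1.04 and 1.09. Meg3, Peg3, Peg10 and Grb10, the most abundant, had 0.19, 0.01, 0.30 and 0.11, and were not called.

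Markers of other cell types were read beside these genes, since H19 is abundant in endoderm. Of 10 endoderm markers 9 were tested, and 2 were called lower, Foxa2 and Krt18, with 0 called higher. Summed endoderm markers were at 930, 783, 582 and 543 CPM in parental libraries 1 to 4, and at 605, 487, 618 and 419 in mutant libraries 1 to 4. These sums overlap between the lines. Of the 9 tested markers 1 had a positive log2 fold change, and their median was -0.38. Afp, a defining gene of visceral endoderm, was not tested.

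Summed mesenchyme markers were at 913 to 1372 CPM in parental cells and 1977 to 2498 CPM in 4D, with 4 of 7 tested called higher, Col1a2, Col3a1, Twist1 and Postn. Summed endothelial and blood markers were at 292 to 476 and 825 to 1258 CPM, with the globin genes Hba-x, Hbb-bh1 and Hbb-y called higher of 10 tested. Neither sum overlapped between the lines. In 4D most of the endothelial and blood sum came from Hba-x and Hbb-bh1, so that sum does not speak for the other markers of its list. Hba-x and Hbb-bh1 had means of 31.2 and 106 CPM in parental cells, and of 242 and 427 CPM in 4D. Of the 10 endothelial and blood markers 9 had positive log2 fold changes. Pecam1 had -0.27, and Cdh5, Cd34 and Tal1 had 0.35, 0.34 and 0.76, none of them called by edgeR. Libraries of Pecam1, Cdh5 and Cd34 overlapped between the lines, and the sum without the globin genes was not taken. Summed trophoblast markers were at 139 to 214 and 100.1 to 146 CPM. Of 7 listed 4 were tested, and 2 of the 4 had positive log2 fold changes, with a median of 0.03. Cdx2, the most abundant of them at 133 and 73.7 CPM, was called lower, while Gata3 and Tfap2c had log2 fold changes of 0.36 and 0.62 and were not called. Neural sums were at 1069 to 1477 and 919 to 1366 CPM, most of it from Sox11 alone, with means of 1233 and 1105 CPM. Pluripotency sums were at 16.7 to 25.8 and 21.2 to 29.6 CPM. The precardiac and cardiac sums were at 1783 to 3430 and 1762 to 2112 CPM. Of the 14 tested, 4 had positive log2 fold changes, 8 had an unadjusted edgeR p under 0.05, and the median was -0.69. Gata6 was called higher and 0 were called lower by edgeR, while DESeq2 called 4. Myl7 and Hand1 had log2 fold changes of -1.65 and -0.39, and Hand2 and Kdr 0.40 and 0.34, none of them called by edgeR. Without mutant library 4, 2 of these 14 were called, and 4 of the 10 endothelial and blood markers. What part the cell makeup has in the values of the 10 genes was not tested.

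The genes most alike H19 in pattern were sought by Pearson's r of log2 CPM over the 8 libraries, among 9025 other tested genes with a mean of at least 10 CPM. Alpk3 (r = 0.99), Tecr (0.97) and Cdh3 (0.96) came first, with log2 fold changes of -0.71, -0.42 and -0.49, none of them called. For Cdkn1c the first were Myo18a, Lrrfip1 and Tpm2, with r of 0.96, 0.92 and 0.91. For Igf2 they were Mcrip1, Nxf1 and Upf1, with r of 0.97, 0.96 and 0.95. Igf2 had only 7 to 35 counts per library, and the limit on Igf2 counts holds here too. The points are the same 8 libraries and share their depth, and the highest of so many values of r is high by choice.

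**Figure D4:**
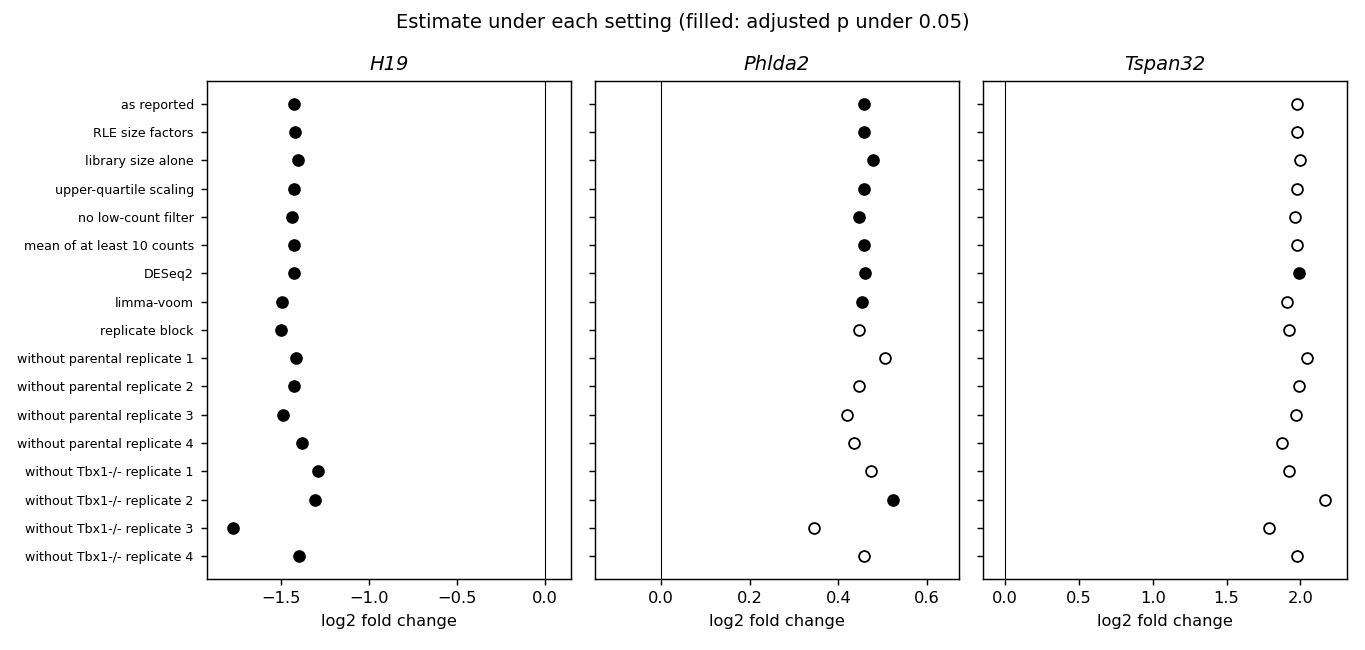
Log2 fold change of H19, Phlda2 and Tspan32 as reported and under 16 alternative settings; filled points have an adjusted p under 0.05. H19 was called in all 16, between -1.77 and -1.29, Phlda2 in 8, and Tspan32 with DESeq2 alone.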

How the data were processed

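Polyadenylated RNA was measured by QuantSeq in 8 libraries, 4 per line, with groups and replicate numbers from the sample titles. The deposited table holds whole-number counts per gene. STAR, featureCounts and the build mm10 are named in the submitters' processing notes, without versions, and the annotation, filters and any removal of duplicate reads are not given in the sources used here. Of 55487 identifiers, 55227 matched GENCODE M21 on GRCm38, the source of positions and symbols, and the exons behind the counts may differ from it.

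Genes were filtered with filterByExpr, scaled by TMM and tested with edgeR 4.0.16 (glmQLFit, glmQLFTest) in R 4.3.3, with an intercept and the line, over all 13280 genes. SEs were derived from the F statistic. Log2 CPM for correlations used a prior count of 2. The script was tested on simulated data. Library pairs within a line differed beyond sampling noise (chi-square per degree of freedom 7.20 to 26.0 in 12 pairs), so all 8 were used. The labels do not say that replicates are separate cultures, so p-values measure only the spread between these libraries, which may be technical. Alternatives used RLE, upper-quartile or library-size scaling, DESeq2 1.42.0, limma-voom (limma 3.58.1), no filter, a filter on a mean count of 10, the replicate number as a block, and each library left out.

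The members and gene lists were chosen with earlier results of these data known. Named genes were the 10, Tbx1, all tested genes of the list beside the domains, called genes of the other lists with up to 4 of the most abundant uncalled ones, and the 3 genes most alike H19, Igf2 and Cdkn1c. Not all of these are printed with values.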

Additional observations from a re-analysis of the deposited data

Results flagged for a closer look

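In 22 groups of 4 libraries (2 lines for each of the 10 genes and for the log2 ratio of H19 to Igf2), 1 library lay far from the others of its group by Dixon's criterion, which chance meets in about 1 of 20 groups. It was parental library 2 for Nap1l4, at 166 CPM, against 194 to 199.5 CPM in the other parental libraries.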

How the results depend on the processing

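H19 kept its direction and its call in all 16 alternatives, with log2 fold changes of -1.77 to -1.29. Phlda2 kept its direction in 16 and its call in 8. It lost the call with the replicate number as a block, at 0.45, and ranged from 0.35 to 0.52 when single libraries were left out. Tspan32 was called by DESeq2 at 1.99 and ranged from 1.78 to 2.17 without single libraries. Leaving out single libraries gave -0.084 to 0.057 for Cdkn1c, -0.19 to 0.021 for Cd81 and -0.25 to 0.055 for Tssc4, with sign changes for Cdkn1c without parental library 1 (0.057) or mutant library 2 (0.0089), for Cd81 without parental library 1 (0.021) and for Tssc4 without mutant library 4 (0.055). Igf2, Kcnq1ot1, Slc22a18 and Nap1l4 kept their sign in all 16. Leaving out single libraries moved Igf2 over 0.21 to 0.80, Kcnq1ot1 over -0.29 to -0.10 and Nap1l4 over 0.025 to 0.14, and Slc22a18 was lowest, at 0.48, without mutant library 4.

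Of the 10 genes, those called higher numbered 2 with DESeq2, 0 with the replicate number as a block in edgeR (2 at an unadjusted p under 0.05), and 0 to 1 with single libraries left out. In the whole table, genes called higher numbered 208 without the low-count filter, 203 with DESeq2 and 57 to 115 without single libraries. Genes called lower numbered 231 without the filter, 196 with DESeq2, 140 with limma-voom, 57 with library size alone and 39 to 120 without single libraries. Tests without the filter covered 26750 genes. The cause of the other changes was not tested. Deviations from the line means correlated between libraries of equal number at 0.10, 0.015, -0.033 and 0.028 for replicates 1 to 4, so the numbers are not taken as pairs. The block gave 234 called genes, and 172 of the 188 were shared. The difference in the log2 ratio of H19 to Igf2 was -2.32 to -1.55 without single libraries. Counts of Igf2, Tspan32 and Slc22a18, at most 56 in any library, limit what could be detected for them.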

Other observations

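Mutant library 3 was the highest of the mutant libraries in CPM for H19 (114), Phlda2 (645), Tspan32 (10.2), Tssc4 (53.2) and Cdkn1c (1382), and the lowest for Kcnq1ot1 (345). These were picked out after their values were seen.

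At the Igf2 locus the antisense gene Igf2os had 3050 counts over the 8 libraries and Igf2 had 163, where the limit on Igf2 counts given above holds. At the Kcnq1 locus the antisense gene Kcnq1ot1 had 19651 and Kcnq1 had 24. Recounting the reads with the bases shared by Gm49394 and Igf2 given to Igf2 would be needed to compare Igf2 with the others.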
